A study of Caenorhabditis elegans with 2 samples.

Results

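The 10 genes described here encode subunits of nicotinic acetylcholine receptors in the nematode Caenorhabditis elegans: unc-63, unc-38, unc-29, lev-1, lev-8, acr-2, acr-3, acr-8, acr-12 and acr-16. They are 10 of the 19973 protein-coding genes on the 6 nuclear chromosomes. The question was where the forkhead transcription factor FKH-2 was bound in and around them. For every member, each peak was listed whose point lay in the gene body or within 5 kb of it. The list of genes was chosen from earlier results of these same data, in which a strong peak beside unc-63 was already known. The scores and counts below are therefore a description, without a test.

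FKH-2 binding was measured by chromatin immunoprecipitation followed by sequencing (ChIP-seq) in 2 biological replicates of 1 group. The animals were whole L3 larvae of both sexes, pooled, from strain OP185, which carries the mutation unc-119(ed3) on chromosome III and the transgene wgIs185, with FKH-2 tagged by eGFP; their exact age is unknown. A whole larva mixes muscle, neurons and every other tissue, so a peak cannot be placed in a cell type, and the strain expresses tagged FKH-2 from a transgene. The sample descriptions name eGFP-fkh-2 as the target of the ChIP-seq, whereas the antibody label reads fkh-2. These labels do not settle whether untagged FKH-2 adds to the signal. There was 1 group and so no comparison of conditions; a control library was not used here. The 4 lists in build ce11 were the set kept by irreproducible discovery rate (IDR, 203 peaks), the pooled list (30000), replicate 1 (30000) and replicate 2 (24744). Read depth is unknown, each list has its own score scale, and scores are compared only within a list. The score of a peak is the signal value deposited by the authors.

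Nicotinic receptors are ion channels of 5-subunit rings that open when acetylcholine binds. In C. elegans body wall muscle, one type is opened by the anthelmintic levamisole and is built from UNC-63, UNC-38, UNC-29, LEV-1 and LEV-8, and a second type, insensitive to levamisole, is built from ACR-16. Motor neurons use a further receptor with ACR-2, ACR-3 and ACR-12, which also takes up UNC-63 and UNC-38. Forkhead factors such as FKH-2 bind DNA through a winged-helix domain, and FKH-2 is known for its part in shaping the cilia of a class of olfactory neurons.

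Among the 10 receptor genes, unc-63 alone had an IDR peak, and the other 9 had only weaker regions of the longer lists. An IDR peak lay at 1 of 10 members, against 2.66% of all protein-coding genes, a share that the choice of the list fixes. A pooled peak was present at all 10 members, but 96.1% of all genes had one too, and the same holds for the lists of replicate 1 (10 of 10, against 96.4%) and replicate 2 (10 of 10, against 94.5%). A pooled peak with a deposited −log10 q-value above 1.3 (a q-value of about 0.05) occurred at 7 of 10 members, against 58.1% of all genes. lev-8, acr-2 and acr-3 had none. Nearly every gene has a pooled or replicate peak in so wide a window, so the presence of such a peak says little about a gene.

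Over the 134 kb of merged windows, the members had 37 distinct pooled peaks, or 0.277 per kb, against 0.302 per kb over the 96973 kb of merged windows of all genes. Of these 37, 10 had a −log10 q above 1.3 (0.0747 per kb, against 0.0733 per kb). The median score of the 37 was 6.07, against 6.19 over the 29241 pooled peaks at protein-coding genes. The unc-63 peak apart, the pooled peaks at the receptor genes were about as dense and as strong as those at genes at large. The highest score at each member had a median of 9.34 over the 10 members, unc-63 included, against 8.72 over all genes. The windows were not matched in width, and a wider window reaches more peaks.

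**Figure D1:**
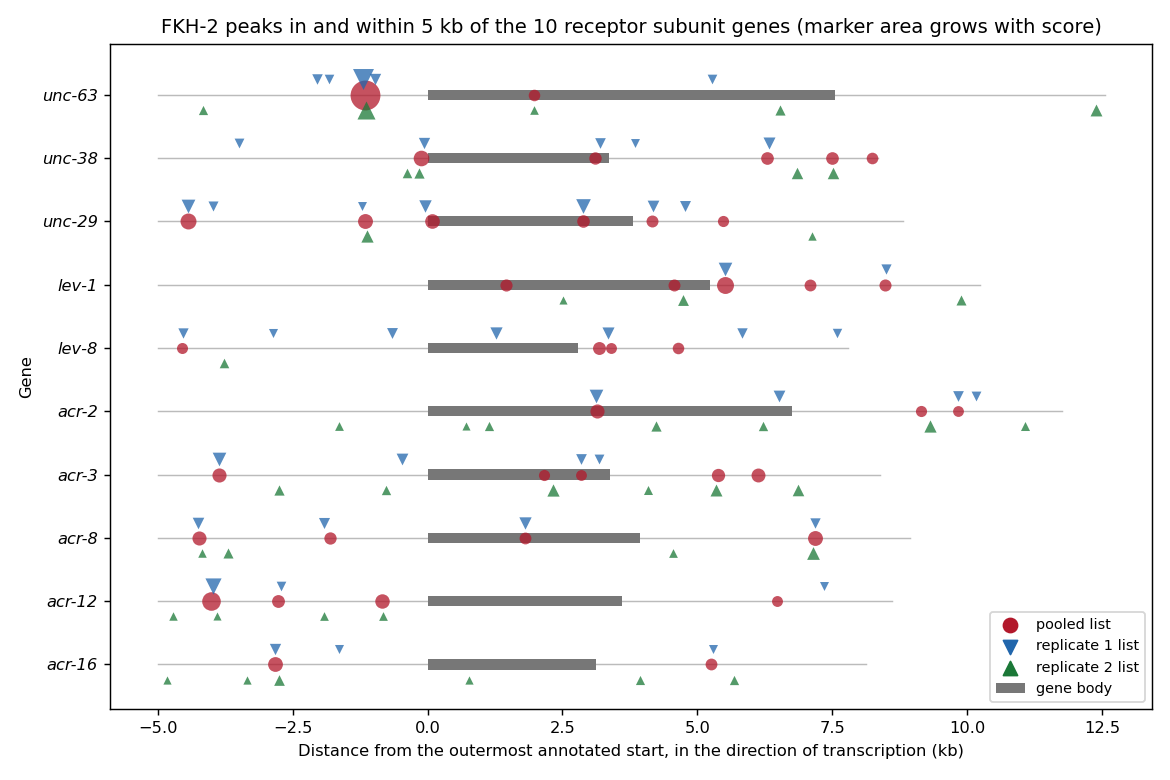
Peaks in and within 5 kb of the 10 genes, 1 row per gene, by distance in kb from the outermost annotated start in the direction of transcription. Circles on the line are pooled peaks, triangles above it replicate 1 and triangles below it replicate 2, with an area that grows with the score on each list's own scale; the pooled peak upstream of unc-63 (score 38.2) stands out from the rest, with a large peak of each replicate at the same place.

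The alpha subunit UNC-63 takes part in both the muscle levamisole receptor and the motor neuron receptor. Its gene (WBGene00006797, ce11 chromosome I, 5141673 to 5149226, plus strand) had an IDR peak at 5140371 to 5140660 with a score of 38.2, rank 35 of the 203 IDR peaks and of the 30000 pooled peaks. The overlapping replicate 1 peak scored 18.4 (rank 109) and that of replicate 2 scored 13.4 (rank 75), so the region was among the strongest in each library. The score was above the IDR median of 27.4, and above the weakest IDR peak, at 22.2.

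The point of the unc-63 peak lay 1157 bp upstream of the gene's single annotated start, outside the promoter window of 500 bp. It was in the 2290 bp between unc-63 and tyms-1, a thymidylate synthase gene on the same strand. No protein-coding gene covered the point and no noncoding gene lay within 200 bp, and the nearest annotated start was that of unc-63. Many C. elegans transcripts are trans-spliced, so an annotated start can lie downstream of the site where transcription begins. A second replicate 1 peak, shifted towards the gene (score 4.79, rank 11580), overlapped the same region.

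Over all genes, 88 of 19973 (0.441%) had a pooled peak at least as strong in their window as unc-63. In replicate 1 the share was 1.45% and in replicate 2 it was 0.986%. Inside the unc-63 gene, the only pooled peak was a weak one in intron 2 of 9 (score 4.99, rank 23298), matched in replicate 2 (2.42, rank 19993) and by no peak of replicate 1. Each replicate had 1 further intron peak of its own, in intron 5 for replicate 1 (3.25, rank 22910) and in intron 8 for replicate 2 (3.66, rank 10164), which did not overlap.

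UNC-38, an alpha subunit, and UNC-29, a non-alpha subunit, are essential parts of the muscle levamisole receptor, and their genes were the members with a pooled peak at the promoter, within 500 bp of an annotated start. unc-38 (WBGene00006774, chromosome I, 4897620 to 4900974, minus strand) had one 122 bp upstream of its start at 4900951 to 4901240 (score 9.82, rank 3838, −log10 q 1.98). Replicate 1 scored 4.75 there (rank 11793) and replicate 2 scored 3.74 (rank 9765). The peak was present in both replicates, but far from the top of either list. It lay in the 943 bp shared with the divergent gene icmt-1, whose start was 822 bp away.

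The other 4 pooled peaks of unc-38 scored 5.05 to 6.19. Of these, 3 lay downstream, inside the neighbouring gene F25F8.1, and 1 was in a coding exon of unc-38 (5.89, rank 16908), where replicate 1 had a peak (4.12) and replicate 2 had none. A further replicate 2 peak, 373 bp upstream of the start (3.15, rank 13462), also overlapped the promoter peak.

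unc-29 (WBGene00006765, chromosome I, 8897632 to 8901435, minus strand) had 6 pooled peaks, the most of any member, and 3 with a −log10 q above 1.3. The one at the promoter, in intron 1 and 89 bp downstream of the start, scored 8.52 (rank 6252), with 5.94 in replicate 1 and no overlapping peak in replicate 2. One lay 1166 bp upstream (8.87, rank 5423), where replicate 2 was the stronger library by rank (5.71, rank 3001) and replicate 1 was near the end of its list (2.66, rank 29349). The strongest, 4433 bp upstream (10.3, rank 3191), was 421 bp from a start of tgs-1, inside an exon of vps-13, and had a peak in replicate 1 (7.40) and none in replicate 2. In a coding exon of unc-29, replicate 1 had its strongest peak of the window (8.56, rank 1992), which scored only 6.07 when pooled and was absent from replicate 2. No unc-29 region ranked high in both lists.

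A promoter peak was thus present at 2 of 10 members, against 36.0% of all genes. With a −log10 q above 1.3 the count was again 2 of 10, against 11.5%. By peaks, 2 of the 37 had their point within 500 bp of a start of a member, while 9 of 37 (24.3%) were that close to a start of any protein-coding gene, against 27.3% of all pooled peaks at genes. Of those 9, the other 7 were at starts of neighbouring genes.

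**Figure D2:**
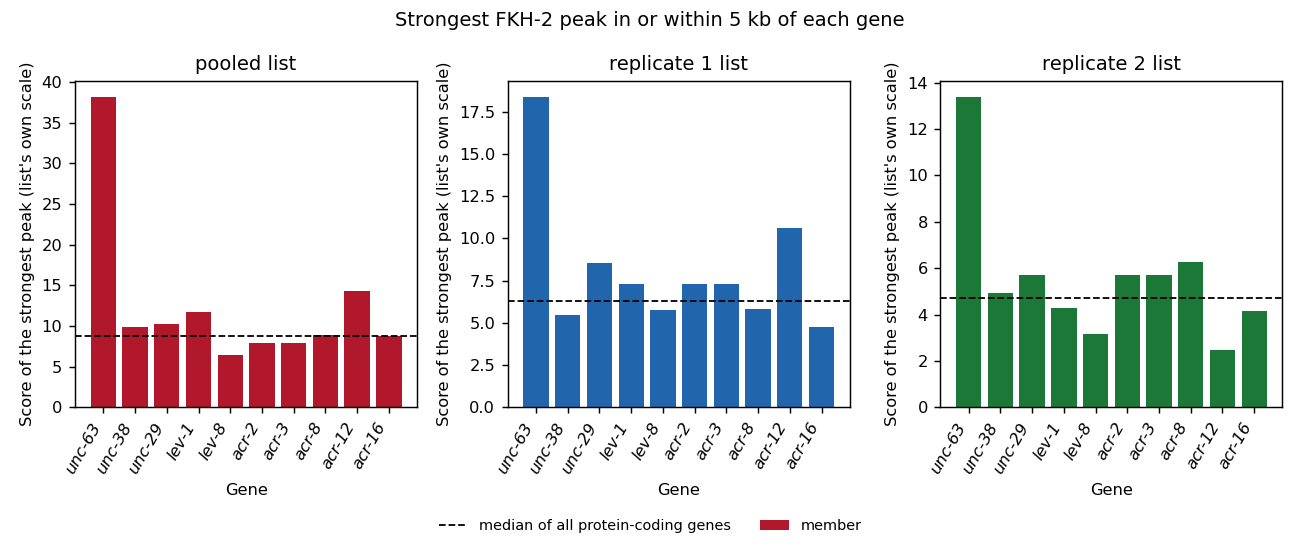
Score of the strongest peak in or within 5 kb of each gene, in the pooled list, replicate 1 and replicate 2, each on its own scale (1 value per bar, no error). The dashed line is the median over all protein-coding genes (8.72 pooled, 6.31 in replicate 1, 4.71 in replicate 2); unc-63 is highest in each panel, and acr-12 is second in the pooled list and replicate 1 but lowest in replicate 2.

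LEV-1 is a non-alpha subunit of the levamisole receptor and LEV-8 an alpha subunit of it. lev-1 (WBGene00002974, chromosome IV, 13174157 to 13179395, minus strand) had its strongest pooled peak downstream, 272 bp past the end of the gene at 13173740 to 13174029 (11.7, rank 1961, −log10 q 2.75). The point lay in an untranslated exon of nas-14, an astacin-family protease gene that ends beside lev-1. Replicate 1 scored 7.29 there (rank 3556) and replicate 2 had no overlapping peak. Inside lev-1, pooled peaks in introns 1 and 7 scored 5.62 and 5.44, and the intron 7 peak had a replicate 2 peak (4.30) but none of replicate 1.

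lev-8 (WBGene00002975, chromosome X, 11560915 to 11563707, plus strand) had the lowest strongest pooled score of the members, 6.47 (rank 13540), in an intron of the neighbouring gene trpp-9. In all, 79.5% of genes had a pooled peak at least that strong. No pooled peak lay inside lev-8. Replicate 1 listed a peak in intron 6 (5.74, rank 7413), with 2 forkhead cores within 50 bp of its point, and one 653 bp upstream (4.34, rank 14224). Replicate 2 listed a single peak in the whole window (3.15, rank 13474), inside C35C5.10, and it overlapped none of replicate 1.

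ACR-8 is a further alpha-type subunit, which in the parasitic nematode Haemonchus contortus takes part in a levamisole receptor. The strongest pooled peak near acr-8 (WBGene00000047, chromosome X, 10412725 to 10416661, plus strand) was downstream, at chrX:10419757-10420046 (8.85, rank 5452, −log10 q 1.59). Its point was 137 bp upstream of the start of cdk-11.2, a cyclin-dependent kinase gene, and 3241 bp from the end of acr-8. Replicate 2 ranked it high (6.26, rank 2092) and replicate 1 low (3.86, rank 17665). It was the only one of the 37 pooled peaks with the core ATAAACA or GTAAACA, the words forkhead proteins favour, within 50 bp of its point. The bases around the point, chrX:10419852-10419952 on the plus strand, are shown because they hold 2 forkhead cores, marked by capitals.
acr-8 downstream, at cdk-11.2: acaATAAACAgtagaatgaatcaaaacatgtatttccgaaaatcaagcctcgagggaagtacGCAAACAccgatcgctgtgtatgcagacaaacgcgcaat
Inside acr-8, a weak peak in intron 4 scored 5.27 pooled and 5.82 in replicate 1, with none in replicate 2. Upstream, a pooled peak 4232 bp from the start (7.83, rank 8063) was in a coding exon of ZC504.1 and overlapped a peak of each replicate (5.02 in replicate 1, 2.33 in replicate 2).

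ACR-16 forms the levamisole-insensitive receptor of body wall muscle by itself. acr-16 (WBGene00000055, chromosome V, 8561216 to 8564345, plus strand) had 2 pooled peaks, and none in the gene body. The stronger, at chrV:8558239-8558528 and 2832 bp upstream of the start, scored 8.75 (rank 5655, −log10 q 1.54). It scored 4.76 in replicate 1 (rank 11746) and 4.16 in replicate 2 (rank 7682), so it was found in both libraries at middling rank. It lay in the 5832 bp gap towards acr-15, another receptor family gene, within 200 bp of the noncoding gene F25G6.16. The whole peak is shown, plus strand, as the one region found in both replicates whose nearest start is that of acr-16; it holds no forkhead core and no GAGAGA, so no letter is in capitals.
acr-16 upstream: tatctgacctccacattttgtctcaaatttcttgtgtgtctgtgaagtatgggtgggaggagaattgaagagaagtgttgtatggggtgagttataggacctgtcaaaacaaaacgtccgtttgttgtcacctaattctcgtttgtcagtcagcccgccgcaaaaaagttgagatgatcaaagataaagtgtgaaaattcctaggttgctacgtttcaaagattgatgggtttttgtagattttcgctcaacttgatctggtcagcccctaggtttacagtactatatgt
The only listed peak inside acr-16 was a replicate 2 peak in a coding exon (2.12, rank 23275).

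ACR-2 and ACR-3 are non-alpha subunits of the motor neuron receptor, and their genes lie in tandem on chromosome X with 229 bp between them. Their windows overlap and share 3 pooled peaks, including the strongest of both. acr-2 (WBGene00000042, 6702549 to 6709308, plus strand) had its strongest in intron 3 of 12 at 6705536 to 6705825 (7.86, rank 7977, −log10 q 1.20). Replicate 1 scored 7.33 there (rank 3483) and replicate 2 had no overlapping peak. acr-3 (WBGene00000043, 6709538 to 6712925, plus strand) held 2 weak pooled peaks in coding exons (4.59 and 4.29). The higher overlapped a replicate 2 peak with its point in intron 10 of acr-3 (5.70, rank 3028), and the lower a replicate 1 peak (4.18, rank 15278). Downstream of acr-3, inside nas-11, pooled peaks scored 6.89 and 7.65, the first with a replicate 2 peak (5.43) and the second with no replicate peak.

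No pooled peak at acr-2 or acr-3 overlapped a peak of both replicates, and neither gene had one within 500 bp of its start. Near the start of acr-3, inside the end of acr-2, replicate 1 had a peak at 479 bp (5.20, rank 9544) and replicate 2 one at 775 bp (2.97, rank 14853), which did not overlap. Upstream of acr-2, the only listed peak was in replicate 2, 1639 bp from the start (2.52, rank 18953).

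ACR-12 is an alpha subunit used in motor neurons. acr-12 (WBGene00000051, chromosome X, 13532853 to 13536459, plus strand) had the second strongest pooled peak of the members, at chrX:13528686-13528975 (14.3, rank 895, −log10 q 3.37). The replicates differed widely there: replicate 1 scored 10.6 (rank 862), whereas replicate 2 scored 2.03 (rank 24370 of 24744). Its point was 4022 bp upstream of acr-12 but 257 bp upstream of F18H3.4 and 1416 bp from a start of pab-2, a poly(A)-binding protein gene, in the divergent interval of these 2 genes. Since F18H3.4 lies between the peak and acr-12, acr-12 was not the nearest gene. The peak is shown, plus strand, as the strongest one outside unc-63; capitals mark a forkhead core (ATAAATA) and a GAGAGA repeat, read here on the other strand as TCTCTC.
acr-12 far upstream, at F18H3.4: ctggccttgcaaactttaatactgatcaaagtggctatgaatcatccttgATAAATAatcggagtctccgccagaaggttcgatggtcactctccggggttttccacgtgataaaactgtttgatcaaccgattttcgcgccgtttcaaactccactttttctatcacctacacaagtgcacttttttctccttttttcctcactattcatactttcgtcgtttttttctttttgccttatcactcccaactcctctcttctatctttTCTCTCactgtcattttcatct
A weaker pooled peak 842 bp upstream of acr-12 (8.29, rank 6798, −log10 q 1.37) had the start of acr-12 as its nearest start. It overlapped a replicate 2 peak (2.49, rank 19282) and none of replicate 1.

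By the 1000 strongest pooled peaks, unc-63 and acr-12 were the members reached (2 of 10, against 11.9% of all genes). With each replicate taken alone, and as many of its strongest peaks as the IDR set holds, unc-63 was the only member reached in replicate 1 (against 2.73% of all genes) and in replicate 2 (against 2.70%). A −log10 q above 1.3 at a peak whose nearest start belongs to the gene itself was found at 5 members, unc-63, unc-38, unc-29, acr-12 and acr-16 (5 of 10, against 26.4% of all genes). This rule was added after the values were seen. Every count of this paragraph includes the unc-63 region, which was known when the list was chosen, so these counts add no separate support.

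**Figure D3:**
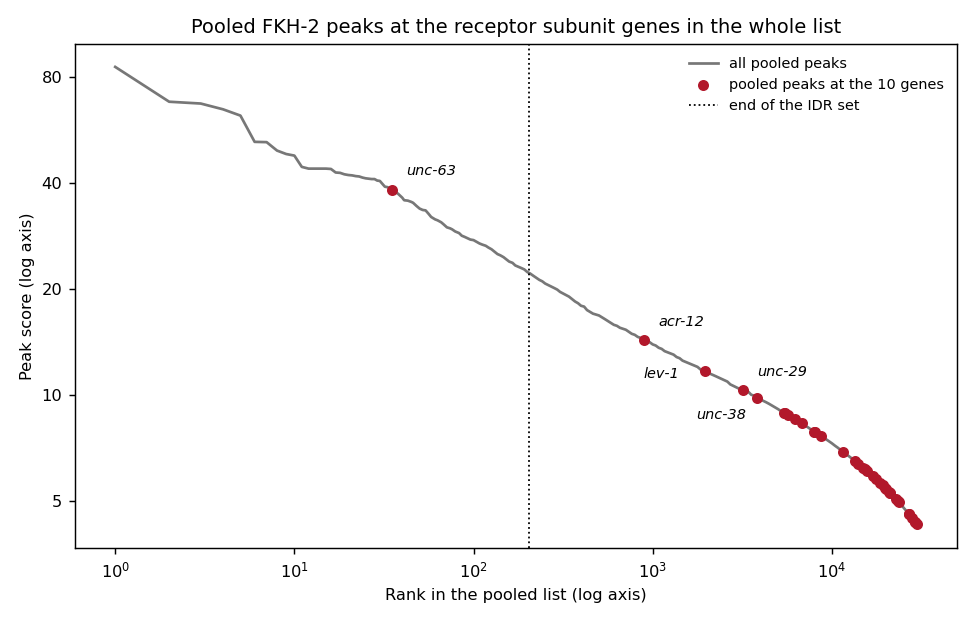
Peak score against rank for the pooled list, both on log axes. The line is the whole list of 30000 peaks, the points are the 37 pooled peaks at the 10 genes and the dotted line marks the end of the IDR set at rank 203; unc-63 (38.2) is inside it, acr-12 (14.3) follows at rank 895, and the other points run from rank 1961 to rank 29718.

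The 2 replicates shared few of the weaker regions. Of 40 distinct replicate 1 peaks at the members, 8 overlapped a replicate 2 peak by at least 1 bp, against 18.5% of replicate 1 peaks at all genes. Of 38 replicate 2 peaks, 7 (18.4%) overlapped one of replicate 1, against 22.2%. A pooled peak overlapped by both replicates was found at 6 of 10 members, against 45.5% of all genes: unc-63, unc-38, unc-29, acr-8, acr-12 and acr-16. lev-1, lev-8, acr-2 and acr-3 had none. Among the 37 pooled peaks at the members, 24 (64.9%) overlapped a replicate 1 peak, against 58.0% of all pooled peaks at protein-coding genes. A replicate 2 peak overlapped 13 (35.1%, against 40.5%), and both replicates overlapped 7 (18.9%, against 17.5%). These shares of the members were near those of genes at large. A further 7 were overlapped by neither, for which the share over all pooled peaks was not computed. Of the 10 with a −log10 q above 1.3, 6 overlapped both, against 39.3% of the 7297 pooled peaks past that limit.

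By position, 10 of the 37 pooled peaks were in a member gene, 6 of them in introns and 4 in coding exons. The gene bodies make up 43.6 kb of the 134 kb of windows (32.6%). Why most points fall outside the members was not tested. A further 11 were upstream of the nearest member and 16 downstream. Another protein-coding gene covered the point of 16, and 11 points lay outside every protein-coding gene. The nearest annotated start belonged to a member for 12 of the 37. These positions were not counted over all pooled peaks at genes, so they cannot be read as a trait of the members.

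Close to the point, forkhead words were about as frequent in the members' peaks as in all pooled peaks at genes. The degenerate core, the 8 words ACAAACA and ACAAATA, further ATAAACA and ATAAATA, further GCAAACA and GCAAATA, and further GTAAACA and GTAAATA, on either strand, occurred within 50 bp of the point in 5 of 37 peaks (13.5%), against 16.8% of all pooled peaks at genes and 29.6% of the IDR peaks. These 5 were at unc-38 (downstream), unc-29 (the promoter peak), lev-1 (downstream), lev-8 (downstream) and acr-8 (at cdk-11.2). The count depended on the width searched: 15 of 37 within 100 bp (against 30.7% of all pooled peaks) and 19 of 37 in the whole peak (against 41.1%). The unc-63 peak had no such core within 50 bp and 1 in its whole width. It had 2 matches of the repeat GAGAGA, overlaps counted, on either strand within 50 bp of the point and 11 in the whole peak; GAGAGA occurred within 50 bp in 2 of 37 member peaks (5.41%), against 8.21% of all pooled peaks at genes and 38.4% of the IDR peaks. The second was the intron 4 peak of acr-8. The GC content within 50 bp was 42.6% at the unc-63 peak, with a median of 38.6% over the member peaks, 38.6% over all pooled peaks at genes and 46.5% over the IDR peaks. A match describes the letters only, and no match says nothing of binding.

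Among genes whose products act on these receptors, 3 had an IDR peak in their window. Of the list of receptor assembly, clustering and auxiliary proteins, 12 of 13 names were matched in the annotation (unc-74 was not), and the 3 of the 12 (against 2.66% of all genes) were nra-2, ric-3 and lev-9. This list, too, was chosen with earlier results of these data known, so the share is a description and no evidence of enrichment. nra-2, a nicalin homologue that affects which subunits enter a receptor, had its IDR peak 204 bp upstream of its start on chromosome I at 9619878 to 9620167 (31.8, rank 59), with 20.3 in replicate 1 (rank 77) and 12.4 in replicate 2 (rank 99). ric-3, a chaperone of receptor assembly, had one 2309 bp upstream (27.6, rank 96; 18.1 in replicate 1 and 9.97 in replicate 2, rank 257), but its point was 209 bp from the start of cdgs-1. It held ATAAACA or GTAAACA within 50 bp. The peak in the window of lev-9, a secreted protein that clusters the levamisole receptor, was the strongest (52.3, rank 6; 25.1 in replicate 1 and 21.2 in replicate 2). It was 4891 bp upstream of lev-9, inside an intron of mom-1, and nearer to a start of cest-16. Of these 3, nra-2 alone was the gene with the nearest start.

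The strongest peaks of each replicate alone were also taken, as many as the IDR set holds. In replicate 1 they reached 3 of the 12 genes, against 2.73% of all genes. In replicate 2 they reached 2, against 2.70%, and the ric-3 peak fell short. The genes reached are those with an IDR peak, seen again in each replicate, so these counts add no separate support. Of the remaining genes of this list, the strongest pooled peaks were those of molo-1 (rank 990, 961 bp upstream), an auxiliary protein of the levamisole receptor, madd-4 (13.0, in a coding exon 113 bp downstream of a start), a secreted synapse organizer, and crld-1 (12.4, in a coding exon of msh-5). These 3 overlapped a replicate 1 peak and none of replicate 2. In this list 10 of 12 genes (83.3%, against 58.1% of all genes) had a pooled peak with a −log10 q above 1.3, 7 (58.3%, against 45.5%) one overlapped by both replicates, and 9 (against 36.0%) one within 500 bp of a start.

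None of the 19 other family subunits had an IDR peak, while 13 of 19 (68.4%, against 58.1% of all genes) had a pooled peak with a −log10 q above 1.3. The strongest were at des-2 (15.3, rank 691, in an untranslated exon 641 bp upstream of its nearest start), which encodes a partner of the channel subunit DEG-3, at acr-5 (13.5, 2371 bp upstream) and at acr-23 (13.0, in an intron), a target of the drug monepantel. At des-2 both replicates had a peak (9.35 in replicate 1, 3.43 in replicate 2), at acr-5 only replicate 2 (8.56, rank 512) and at acr-23 only replicate 1 (9.73, rank 1188). The 11 genes of acetylcholine synthesis, transport, breakdown and muscarinic reception likewise had no IDR peak, and 7 of 11 (63.6%, against 58.1%) had a pooled peak with a −log10 q above 1.3. The strongest pooled peaks there were near the choline transporter gene cho-1 (15.6, nearest start ced-3), the muscarinic receptor gene gar-3 (15.1, in a coding exon) and the acetylcholinesterase gene ace-1 (10.4, in an intron of sur-7 and within 200 bp of a tRNA gene), each overlapped by replicate 1 and by no peak of replicate 2. At gar-3 that replicate 1 peak was near the end of its list (2.91, rank 26449), against rank 858 at cho-1 and rank 1880 at ace-1. The windows of neighbouring genes can share a peak: the region upstream of acr-16 also counts for acr-15. No test of a difference between the lists was made.

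**Figure D4:**
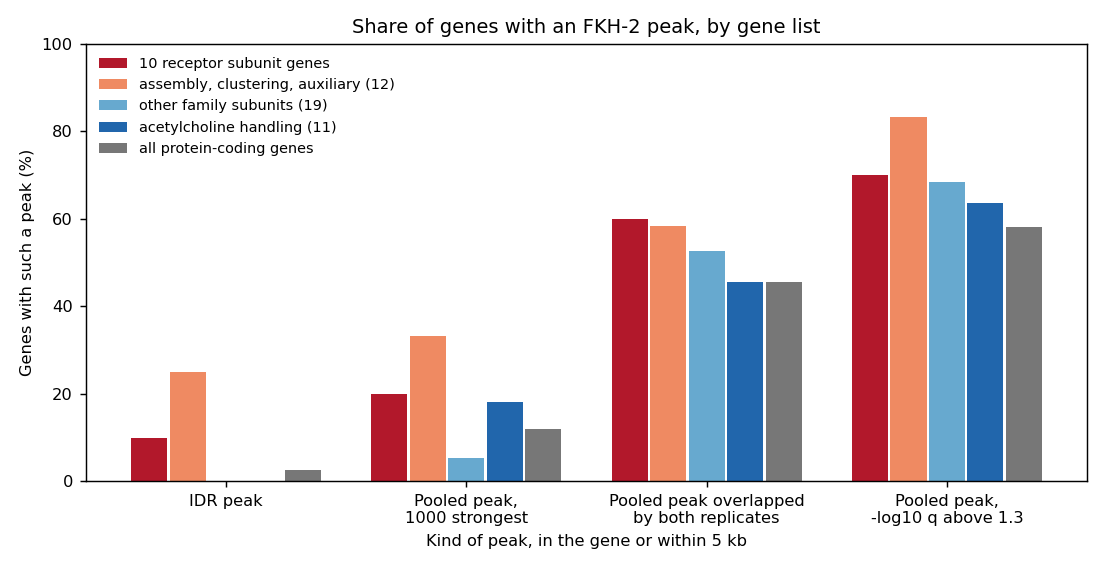
Share of genes in percent with a peak of each kind in the gene or within 5 kb, for the 10 receptor subunit genes, 3 lists of related genes (number of genes in brackets) and all protein-coding genes (grey, 2.66%, 11.9%, 45.5% and 58.1%). The IDR bar stands for 1 of 10 subunit genes and 3 of 12 assembly, clustering and auxiliary genes, and is 0 for the other 2 lists.

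The 5 kb limit decides some entries. The pooled peaks just inside it were 4876 bp from unc-38 (5.05), 4543 bp from lev-8 (4.47) and 4433 bp from unc-29 (10.3). Those just outside were 5110 bp from acr-16 (6.33), 5163 bp from lev-8 (7.98) and 5303 bp from acr-12 (10.8, nearest start pab-2). Between 5 and 10 kb of the members, the highest scores were 11.6 near unc-38 and 11.6 near acr-12, so no IDR peak lay there. At the edge of the IDR set, the weakest IDR peak and the strongest pooled peak outside it both scored 22.2, ranks 203 and 204, and no member peak was near that edge.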

How the data were processed

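FKH-2 ChIP-seq peak lists of 2 biological replicates of L3 larvae were analysed. Per the deposited text files, the authors derived the replicate and pooled lists from alignments with a control file, as input for IDR, and the IDR set from those lists. The deposited score (column 7) and the deposited −log10 q-value of each peak were used as given. Aligner, peak caller and IDR threshold are not given in the sources used here. The score scale is not stated, depth is unknown, and a pooled peak is no replicate.

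The members and gene lists were chosen with earlier results of these data known. Ensembl release 115 models and the RefSeq sequence, both WBcel235 (ce11), gave positions, and all 10 members had the same bounds in both. Coordinates are 1-based. The ce10 lists were not used. A peak was put at a gene when its point lay in the gene or within 5000 bp, so 1 peak can count for several genes. Intron numbers run 5′ to 3′ over merged exons. Motifs were searched within 50 bp of the point on both strands, overlapping matches counted, with Python 3.11.15. Assignment, ranks, overlaps and motif search were checked on planted peaks. All members were named, with every gene of the other lists that had an IDR peak and up to 3 of the rest by strongest pooled peak; neighbouring genes were named after their values were seen. No statistical test was run, since the lists hold 1 group. Alternatives covered the window, the overlap, the threshold, the motif and leaving out a replicate.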

Additional observations from a re-analysis of the deposited data

How the results depend on the processing

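Over 9 counts, 31 of 46 alternative values were within 1.5 times of the reported one. The single member with an IDR peak stayed at 1 with windows of 2000 and 10000 bp, with any overlap with the window, and without either replicate (range 1 to 1, from the remaining replicate's own list), and became 0 with the gene body alone (0.230% of all genes). The list was chosen with this peak known, and the IDR set comes from the same replicates. The count staying at 1 therefore adds no separate support. Members with a pooled peak were 5 of 10 among the 5000 strongest peaks (45.1% of all genes), and 10 to 10 without either replicate. The same 5000-peak limit left 6 members in replicate 1 (against 45.9% of all genes) and 6 in replicate 2 (against 46.5%), and the gene body alone left 5 in replicate 2 (against 45.5%). Members with a pooled peak overlapped by both replicates were 3 with a 2000 bp window (against 28.8% of all genes) and 0 with the gene body alone (against 12.1%). The 37 pooled peaks became 23 at 2000 bp, 78 at 10000 bp, 10 in the gene body alone, 10 with a q-value under 0.05 and 5 among the 5000 strongest, and were 38 to 40 without either replicate. Of the 37 pooled peaks, the 5 with a forkhead core within 50 bp (against 16.9% of all pooled peaks) became 15 within 100 bp (against 30.7%). In the whole peak the count was 19 of 37 (against 41.1%), and for ATAAACA and GTAAACA alone it was 1 (against 4.15%). The share of the members was thus below that of all pooled peaks within 50 bp and above it in the 2 wider searches. Wider windows, and stricter lists, change these counts by construction. The 7 members with a q-value under 0.05 were 5 when the nearest start had to be the member's, an alternative chosen after seeing the data. Depth is unknown, so a missing replicate peak can be a peak below that list's end.

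No paired analysis was possible because the design holds 1 group.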
